A study of Mus musculus with 6 samples.

Results

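The genes described here are those of the MHC class II pathway: the classical chain genes H2-Aa, H2-Ab1 and H2-Eb1, the invariant chain Cd74, the transactivator Ciita, and H2-DMa, H2-DMb1 and H2-DMb2, which encode the H2-DM peptide editor. They were taken by symbol, 8 of the 32285 genes in the deposited matrices, and all 8 had unique molecular identifiers (UMIs, each standing for 1 captured RNA molecule) in each of the 4 gene expression libraries. The libraries were made from CD45+ live cells of the ventral midbrain of male Line 61 mice, in which the Thy1 promoter drives human α-synuclein mainly in neurons and the transgene sits on the X chromosome. Every group carried the transgene, so no group without it was compared. By the paper, Line 61 females are crossed with hybrid B6D2F1 males and the line is kept on a congenic background. The MHC variants that each sample carried are not given, so their part in the levels below was not tested. The mice received bilateral intrastriatal injections at 12 to 15 weeks of age and were collected 6 weeks later. The PBS library came from mice injected with saline and the Monomer library from mice injected with α-synuclein monomer. The PFF_VH library came from mice injected with pre-formed fibrils (PFF) and then gavaged with vehicle, and the PFF_AZD1480 library from mice injected with PFF and gavaged daily with 25 mg/kg of AZD1480, an inhibitor of the kinases JAK1 and JAK2. Each sample pooled 3 to 5 midbrains, and each condition was 1 library, so that condition and library cannot be told apart. Within the PFF libraries, cell hashtags (antibody-linked barcodes) separated 4 samples in PFF_VH and 5 in PFF_AZD1480, and these hashtags were taken as the replicates. The labels do not tie a hashtag to an animal, and hashtags of 1 library share its capture and sequencing, so p-values measure the spread between hashtags only.

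MHC class II molecules are heterodimers that carry peptides from internalised proteins to the surface of antigen-presenting cells, where CD4+ T cells read them. The α and β chains assemble with the invariant chain, which occupies the peptide groove until it is degraded in endosomes, and H2-DM then exchanges its last fragment for peptide. Transcription of these genes is driven in large part by CIITA, which binds no DNA itself but is held on their promoters by the RFX, CREB and NF-Y complexes, and which interferon-γ induces through JAK1 and JAK2 in cells such as microglia.

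By the GENCODE M21 annotation of the mouse genome build GRCm38, which is the build the authors aligned to, 6 of the 8 genes lay together in the MHC on chromosome 17. In map order these were H2-DMa (34119541 to 34139101, plus strand), H2-DMb2 (34143307 to 34151555, plus strand), H2-DMb1 (34153072 to 34160230, plus strand), H2-Ab1 (34257689 to 34269419, plus strand), H2-Aa (34282744 to 34287823, minus strand) and H2-Eb1 (34305867 to 34316674, plus strand). Ciita lay on chromosome 16 (10480059 to 10528418, plus strand). Ciita overlapped Dexi on the opposite strand over 25888 bases, H2-DMa overlapped Brd2 over 3094 bases and H2-Eb1 overlapped the antisense gene Gm20513 over 2204 bases. The strand setting of the counting is not given in the sources used here, so a UMI in such an overlap could belong to either gene. On the same strand, H2-DMa overlapped CR974462.3 over 591 bases and Cd74 overlapped Mir5107 over 88 bases.

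The promoters are shown because the expression patterns of the classical chains and of H2-DM are compared in what follows, and because CIITA acts through elements they share. RefSeq promoter sequences (GRCm38.p6) were matched for H2-Aa, H2-Eb1, H2-DMa, H2-DMb1 and H2-DMb2. Capitals mark AACNGATG, a core of the X1 box, TGACGTCA, the cyclic AMP response element of the kind found at the X2 box, and ATTGG, the Y box (CCAAT read on the other strand), each on the strand of the gene. Each run lies 130 to 31 bases before the RefSeq start, except that of H2-DMb1, which lies 92 to 63 bases before it.
H2-Aa, chr17:34287854-34287953, minus strand: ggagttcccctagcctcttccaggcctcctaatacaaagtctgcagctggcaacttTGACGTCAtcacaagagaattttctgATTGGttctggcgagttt
H2-Eb1, chr17:34305737-34305836, plus strand: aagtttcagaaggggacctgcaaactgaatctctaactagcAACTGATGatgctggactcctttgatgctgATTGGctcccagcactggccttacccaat
H2-DMb2, chr17:34145119-34145218, plus strand: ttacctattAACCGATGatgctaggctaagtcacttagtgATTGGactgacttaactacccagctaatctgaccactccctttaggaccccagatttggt
H2-DMb1, chr17:34153099-34153128, plus strand: AACTGATGatgctaggctgattcactcagt

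H2-Eb1, H2-DMb2 and H2-DMb1 each held the X1 core followed by the Y box, at 30, 31 and 31 bases from first base to first base, and H2-Aa held the X2 sequence followed by the Y box at 26 bases. The Y box of H2-DMb1 begins 61 bases before the start, just past the stretch shown. Counting either strand, AACNGATG was found in 2.32% of the 32851 RefSeq promoters, TGACGTCA in 1.79% and ATTGG in 37.4%. AACNGATG followed closely by ATTGG on 1 strand was found in 6 promoters (0.0183%), namely those of H2-DMb2, H2-DMb1, H2-Eb1, H2-Eb2, BC051142 and H2-M10.4, and TGACGTCA followed by ATTGG was found in 29 (0.0883%). Both counts depend on the distance allowed between the motifs. The 2 promoters listed for H2-DMa held no X1 or X2 match and 1 of them held ATTGG. A match describes the letters only and shows no binding.

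Cells were classed by UMIs of marker genes that are not MHC genes: microglia (MG), border-associated macrophages (BAM), dendritic cells (DC) and B cells, with T and NK cells as a class that does not transcribe class II genes in the mouse. MG numbered 12737 in PBS, 13316 in Monomer, 30278 in PFF_VH and 10971 in PFF_AZD1480. BAM numbered 288, 256, 309 and 332 in the same order, DC 18, 18, 17 and 19, and B cells 49, 27, 42 and 29. Cells with BAM markers that were left out for MG markers numbered 61, 45, 354 and 126, in PFF_VH more than the BAM kept. The deposited libraries held 15501, 15683, 34828 and 13813 barcodes with 99658216 to 116440449 UMIs each, and PFF_VH was the shallowest per cell, with a median of 2392 UMIs per MG against 6929 to 7375 in the others. Its hashtags were also less complete, since 52.0% of its cells carried exactly 1 hashtag against 81.0% in PFF_AZD1480. Libraries shared 45 to 151 cell barcodes in pairs, at most 1.03% of the smaller library. All 12 MG markers were found in MG, all 9 BAM markers in BAM and all 6 B cell markers in B cells. The classes were chosen by these markers, so finding them is no check of identity. All 12 MG markers were also found in BAM of every library, where their sum was below that of the BAM markers. All 9 BAM markers were also found in MG of every library. In addition, 4 to 17 cells per library were classed by markers of cells outside the immune lineage.

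Among MG, B cells, BAM and DC, the classical chains were lowest in MG, then higher in B cells, BAM and DC in that order. H2-Aa, which encodes the α chain of the I-A molecule, stood at 27.0 counts per 1000000 UMIs of the class (CPM) in MG of PBS, 21.8 in Monomer, 60.9 in PFF_VH and 35.8 in PFF_AZD1480. In BAM it stood at 4316, 7496, 4376 and 4814 CPM in the same libraries. In DC it stood at 9668, 12331, 9068 and 9473 CPM, and in B cells at 3702, 3617, 2304 and 3221 CPM. The ranges of MG and BAM did not overlap, nor did those of BAM and DC. B cells were below BAM and DC in all 4 libraries. T and NK cells, the background class, stood at 63.6, 58.4, 31.8 and 287 CPM, above MG in every library but PFF_VH. Few cells carried these levels, with 81 UMIs in 3.43% of the T and NK cells of PBS and 220 UMIs in PFF_AZD1480, of which cells with 1 hashtag held 10.

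H2-Ab1, the β chain that pairs with H2-Aa, kept the same order, with 41.1 to 81.1 CPM in MG, 3307 to 6475 in BAM, 6944 to 10205 in DC and 1679 to 2669 in B cells. H2-Eb1, the β chain of the I-E molecule, stood at 16.4 to 41.5 CPM in MG, 3165 to 6026 in BAM, 6290 to 8956 in DC and 1549 to 2413 in B cells. Its α chain partner H2-Ea is not among the genes listed in the matrices. Cd74, which lies outside the MHC on chromosome 18 (60803848 to 60812652, plus strand), stood at 115 to 295 CPM in MG, 9743 to 17059 in BAM, 19123 to 24838 in DC and 7859 to 11574 in B cells. In B cells Cd74 overlapped the BAM range, while the 3 chain genes did not.

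**Figure D1:**
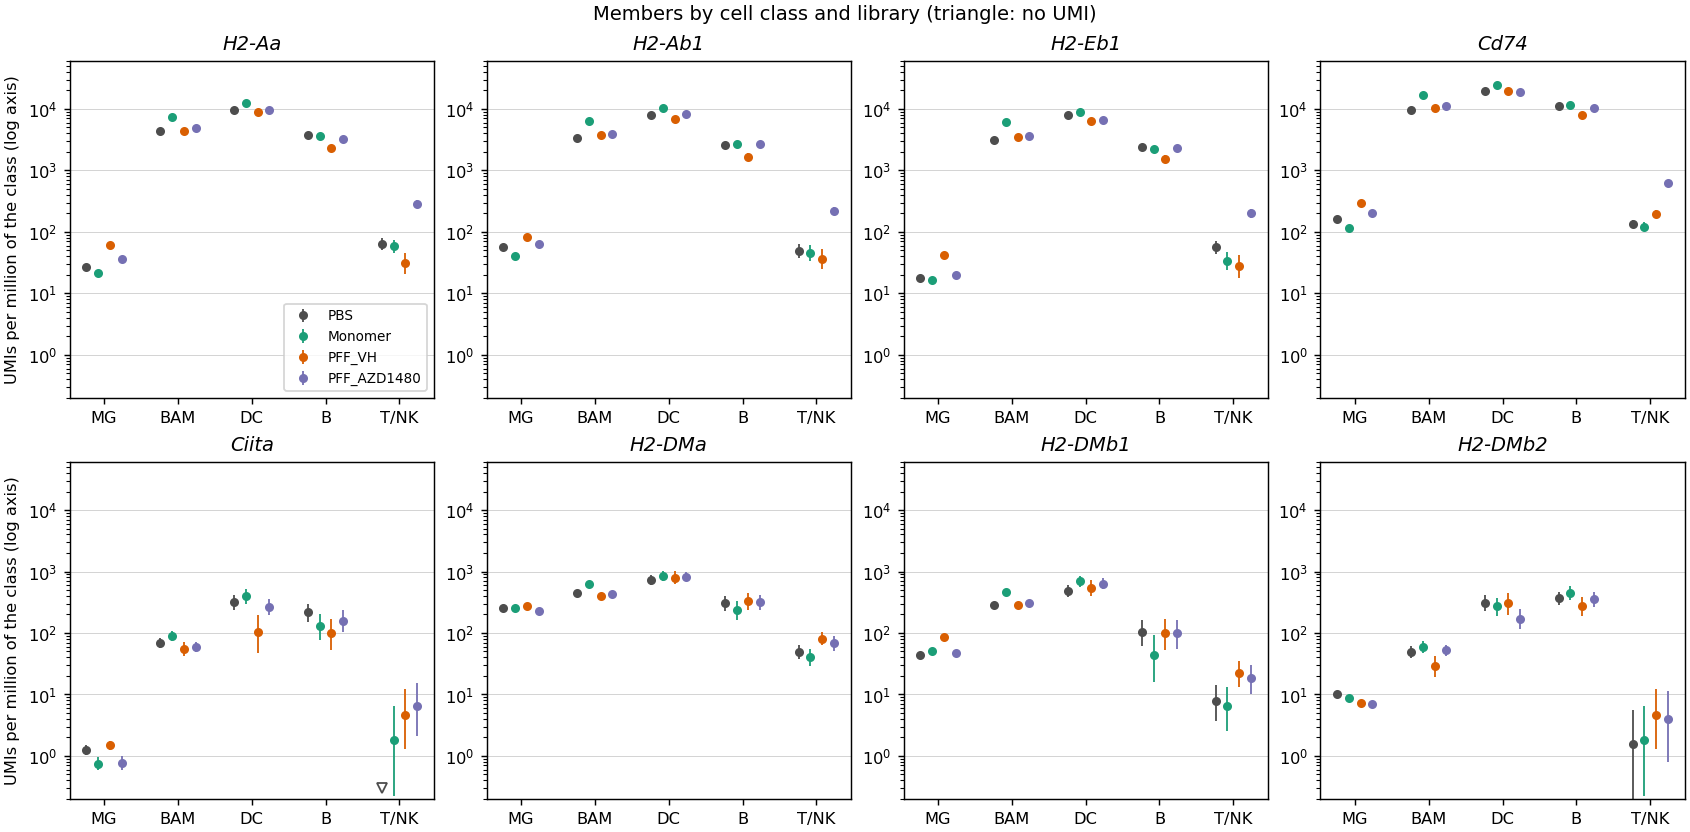
Levels of the 8 genes (CPM, log axis) in MG, BAM, DC, B cells and T and NK cells, with 1 point per library. H2-Aa lies between 21.8 and 60.9 CPM in MG and between 4316 and 7496 CPM in BAM, while H2-DMa lies between 230 and 270 CPM in MG and between 399 and 620 CPM in BAM.

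Ciita, the transactivator, was rare in MG, with 118, 69, 143 and 58 UMIs in all MG of PBS, Monomer, PFF_VH and PFF_AZD1480, or 0.8 to 1.5 CPM. It stood at 55.4 to 90.1 CPM in BAM, 105 to 394 in DC and 99.2 to 216 in B cells. The order of its levels was MG, BAM and then DC and B cells together, since the ranges of the last overlapped.

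The H2-DM genes differed from the chains in MG. H2-DMa, the α chain of H2-DM, stood at 254 CPM in MG of PBS, 259 in Monomer, 270 in PFF_VH and 230 in PFF_AZD1480, against 446, 620, 399 and 435 CPM in BAM. Its levels in B cells, 239 to 328 CPM, overlapped those in MG. H2-DMb1, the more widely expressed of the β chains, stood at 43.1 to 85.2 CPM in MG, 289 to 461 in BAM, 490 to 694 in DC and 43.4 to 102 in B cells. H2-DMb2, the other β chain, stood at 7.1 to 10.1 CPM in MG, 28.7 to 59.4 in BAM, 171 to 310 in DC and 275 to 449 in B cells. H2-DMa and H2-DMb1 were thus highest in DC in all 4 libraries, and H2-DMb2 in B cells in 3 of them, PFF_VH being the exception.

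Neighbouring classes were compared in edgeR's quasi-likelihood test over sums of UMIs per library or hashtag, with Benjamini-Hochberg adjustment over all genes tested. BAM against MG used 11 units, the PBS and Monomer libraries and the 9 hashtags, and called 42.6% of all genes. All 8 genes were higher in BAM. The log2 difference was 6.98 (SE 0.17) for H2-Aa, 5.90 (SE 0.15) for H2-Ab1, 7.32 (SE 0.18) for H2-Eb1, 5.66 (SE 0.16) for Cd74 and 5.89 (SE 0.25) for Ciita. It was 2.47 (SE 0.13) for H2-DMb1, 2.58 (SE 0.21) for H2-DMb2 and 0.81 (SE 0.11, adjusted p = 3.34e-08) for H2-DMa. H2-DMa therefore differed between these macrophage classes by less than any other of the 8 genes.

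DC against BAM could use only the 5 units with enough cells of each, and called 24.4% of all genes. Of the 8 genes, 7 were higher in DC. The chains differed by 0.77 (SE 0.21, adjusted p = 0.0112) for H2-Aa, 0.73 (SE 0.22, adjusted p = 0.0191) for H2-Ab1 and 0.73 (SE 0.22, adjusted p = 0.0179) for H2-Eb1 on the log2 scale in edgeR. Ciita differed by 1.98 (SE 0.34) and H2-DMb2 by 2.47 (SE 0.37). The values for Cd74 and H2-DMa were 0.61 (SE 0.21, adjusted p = 0.0454 in edgeR) and 0.78 (SE 0.23, adjusted p = 0.0173), and H2-DMb1, at 0.57 (SE 0.25, adjusted p = 0.112), did not pass. With the 3 hashtag units alone, H2-DMb2 was the only one of the 8 that kept its call, and with no filter on low counts Ciita and H2-DMb2 alone kept theirs. DC held 17 to 19 cells per library, in which 2 to 4 of the 8 monocyte markers were found at a summed 595 to 1222 CPM, 3 to 5 of the 9 BAM markers at 273 to 511 CPM and no more than 2 of the 6 B cell markers at 12.4 to 117 CPM. Of the 12 MG markers 9 to 11 were found, at 813 to 2894 CPM, beside 1494 to 3016 CPM of the 8 DC markers. In DC of PFF_VH the MG markers, at 2894 CPM, stood above the DC markers, at 1494 CPM. The part of RNA from other classes in these levels was not tested.

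B cells against DC, over the same 5 units, called 32.8% of all genes. H2-Aa, H2-Ab1 and H2-Eb1 were lower in B cells, with log2 differences of -1.39 (SE 0.15), -1.54 (SE 0.14) and -1.67 (SE 0.14), as were Cd74 at -0.83 (SE 0.13), H2-DMa at -1.45 (SE 0.24) and H2-DMb1 at -2.65 (SE 0.37). The log2 difference of Ciita, -0.68 (SE 0.37, edgeR adjusted p = 0.191), and that of H2-DMb2, 0.54 (SE 0.31, edgeR adjusted p = 0.212), did not pass. With hashtags only, Cd74 (-0.72, edgeR adjusted p = 0.0832) lost its call and Ciita stood at 0.053, and with the 4 libraries as units Ciita passed (-0.86, edgeR adjusted p = 0.0412).

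Measured as parts of the UMIs that the 8 genes had together, the mixture in MG differed from that in the other classes. H2-Aa, H2-Ab1, H2-Eb1 and Cd74 made up 49.6% of these UMIs in MG, 96.5% in BAM, 96.0% in DC and 95.3% in B cells. H2-DMa made up 39.9% in MG and 1.79% in BAM, and H2-DMb1 9.02% and 1.27%. In T and NK cells the chains and Cd74 made up 83.8%, 83.8%, 72.0% and 93.2% in PBS, Monomer, PFF_VH and PFF_AZD1480, where MG of the same libraries stood at 46.2%, 37.8%, 56.8% and 52.8%. T and NK cells had 340 to 1101 UMIs of the 8 genes per library, and in PFF_AZD1480 those with 1 hashtag held 10 of the 220 H2-Aa UMIs, so that its value rests mostly on the others. As counts of 3' tags these shares do not depend on gene length, but how well each gene is captured was not measured.

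Since MG were so numerous, the same genes were spread differently over the cells of a library. MG held 10.997% to 32.7% of all H2-Aa UMIs of a library and BAM 23.9% to 59.0%. Cells outside the named classes held 13.7% to 34.2% of them, and in PFF_VH, with 34.2%, more than MG or BAM. For H2-DMa, MG held 89.2% to 93.0%. The 1% of MG with the most UMIs of a gene held 54.5% to 73.2% of the H2-Aa UMIs and 33.8% to 50.7% of the Cd74 UMIs of all MG, but 5.31% to 7.91% of the H2-DMa UMIs and 10.2% to 12.4% of the H2-DMb1 UMIs. The UMIs of H2-Aa and Cd74 were thus more concentrated in these MG than those of H2-DMa and H2-DMb1, although before thinning Cd74 was found in more MG (25.8% to 40.3%) than H2-DMb1 (21.2% to 26.1%).

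To compare cells of unequal depth, each cell was thinned to 1000 UMIs and shallower cells were left out. After thinning, H2-Aa was found in 1.52%, 1.64%, 4.05% and 2.45% of MG of PBS, Monomer, PFF_VH and PFF_AZD1480. In T and NK cells of the same libraries it was found in 1.76%, 2.17%, 3.81% and 2.46%. The share of MG with H2-Aa lay within the interval of the T and NK cells in every library, so that no excess over this background class was detectable by the share of cells. Unthinned, the median depth of T and NK cells was 5258, 5945, 2844 and 6154 UMIs, against 7375, 6964, 2392 and 6929 in MG.

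H2-Eb1 behaved alike, at 1.12%, 1.19%, 2.94% and 1.47% of MG against 0.88%, 1.63%, 2.97% and 2.46% of T and NK cells. Cd74 was found in 7.05%, 6.73%, 16.5% and 11.98% of MG and in 2.64%, 5.43%, 15.7% and 4.92% of T and NK cells, and lay within the interval of T and NK cells in Monomer (2.64% to 9.77%) and PFF_VH (11.3% to 20.96%). H2-Ab1 was found in 3.48%, 3.39%, 6.19% and 5.04% of MG and in 0.441%, 5.43%, 2.97% and 7.38% of T and NK cells, above in PBS and PFF_VH and below in the other libraries. The 9 BAM markers summed to 22.0, 24.7, 273 and 294 CPM in T and NK cells of PBS, Monomer, PFF_VH and PFF_AZD1480. Each value was above that in MG of the same library, for example 20.4 CPM in PFF_VH and 12.3 CPM in PFF_AZD1480. MG were let in only with fewer than 2 detected markers of any other class, so the gate itself kept this sum low in MG. T and NK cells could hold BAM markers as long as their own markers were more. The background class held more BAM marker RNA than MG, so this comparison cannot show that MG lack an excess. These chains cannot be placed above background in MG of every library by the share of cells.

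H2-DMa could be, and H2-DMb1 in 3 libraries. H2-DMa was found in 21.1%, 21.9%, 23.4% and 19.6% of thinned MG against 4.41%, 4.35%, 7.63% and 9.84% of T and NK cells. H2-DMb1 was found in 4.14%, 4.71%, 8.13% and 4.18% of MG against 0.441%, 0.543%, 1.27% and 0.820% of T and NK cells. The intervals of H2-DMa did not overlap in any library, and those of H2-DMb1 overlapped in PFF_AZD1480 (3.81% to 4.58% in MG, 0.0208% to 4.48% in T and NK cells). H2-DMb2 was found in 0.948%, 0.995%, 0.732% and 0.787% of MG, within the 1.55% to 2.99% that the upper limits of T and NK cells reach, and cannot be placed above background. Ciita was found in 0.0375% to 0.188% of thinned MG, too few to set against a class of 122 to 250 T and NK cells.

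**Figure D2:**
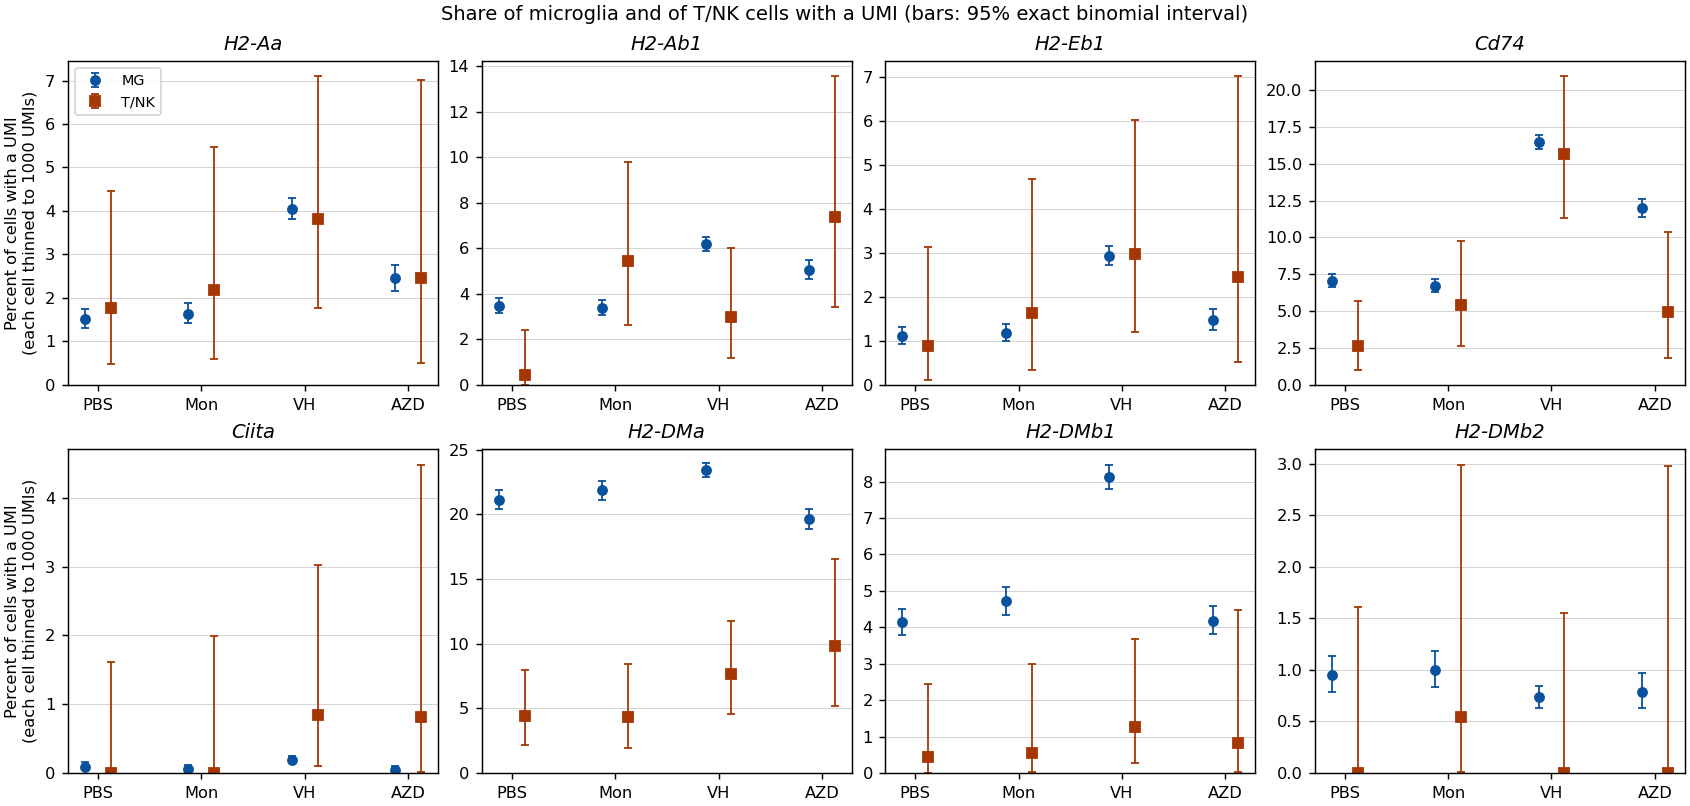
Share of cells (%) with at least 1 UMI of each gene after thinning to 1000 UMIs, in MG and in T and NK cells of each library, with exact 95% binomial intervals that cover counting error only. H2-Aa overlaps between the classes in every library, and H2-DMa lies at 19.6% to 23.4% in MG and at 4.35% to 9.84% in T and NK cells.

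Detection of 1 chain gene and of another went together in MG, although most MG with a chain gene had only 1. At least 1 of H2-Aa, H2-Ab1 and H2-Eb1 was found in 4.89%, 5.31%, 10.6% and 7.69% of thinned MG of PBS, Monomer, PFF_VH and PFF_AZD1480. At least 2 of H2-Aa, H2-Ab1 and H2-Eb1 were found in 0.892%, 0.648%, 1.86% and 0.966% of thinned MG, where independent detection of the 3 genes would give 0.107%, 0.114%, 0.537% and 0.230%. In T and NK cells the shares were 0.881%, 1.63%, 0.424% and 2.46%, on only 1 to 3 cells per library. The MG shares lay within the 95% intervals of these, which were wide (0.0107% to 2.34% in PFF_VH). With so few cells, MG could not be told apart from them. In BAM at least 2 were found in 43.2%, 61.6%, 43.1% and 45.7% of cells and all 3 in 36.9%, 56.8%, 37.5% and 40.5%. Of the MG with at least 2 chain genes, 80.5% to 94.5% also had Cd74 and 29.4% to 37.3% had H2-DMa. Of the MG with no chain gene, 5.63% to 14.1% had Cd74 and 19.6% to 23.2% had H2-DMa. The share with H2-DMa thus differed by less than that with Cd74 between MG without and with the chains. Droplets that hold RNA of another cell cannot be told apart from MG that transcribe these genes.

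BAM were not of 1 kind in these genes. They were split by Lyve1, Cd163 and Cd209f, markers of perivascular and leptomeningeal macrophages, of which 596 BAM had a UMI and 589 had none, at median depths of 4504.5 and 4729 UMIs. H2-Aa stood at 1822 CPM in BAM with and 8646 CPM in BAM without these markers over all libraries. Within the libraries it stood at 1362 against 8234 CPM in PBS, 2245 against 10120 in Monomer, 1478 against 7647 in PFF_VH and 2237 against 7810 in PFF_AZD1480. BAM without the markers were higher in each library. Cd74 stood at 4558 and 19395 CPM, Ciita at 26.2 and 111 CPM and H2-DMa at 265 and 686 CPM over all libraries. All 8 genes were higher in the BAM without the markers in all 4 libraries, and the gap, taken as a fold and not in CPM, was smallest for H2-DMa. This split is a description with no test, since cells of 1 library are not replicates.

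**Figure D3:**
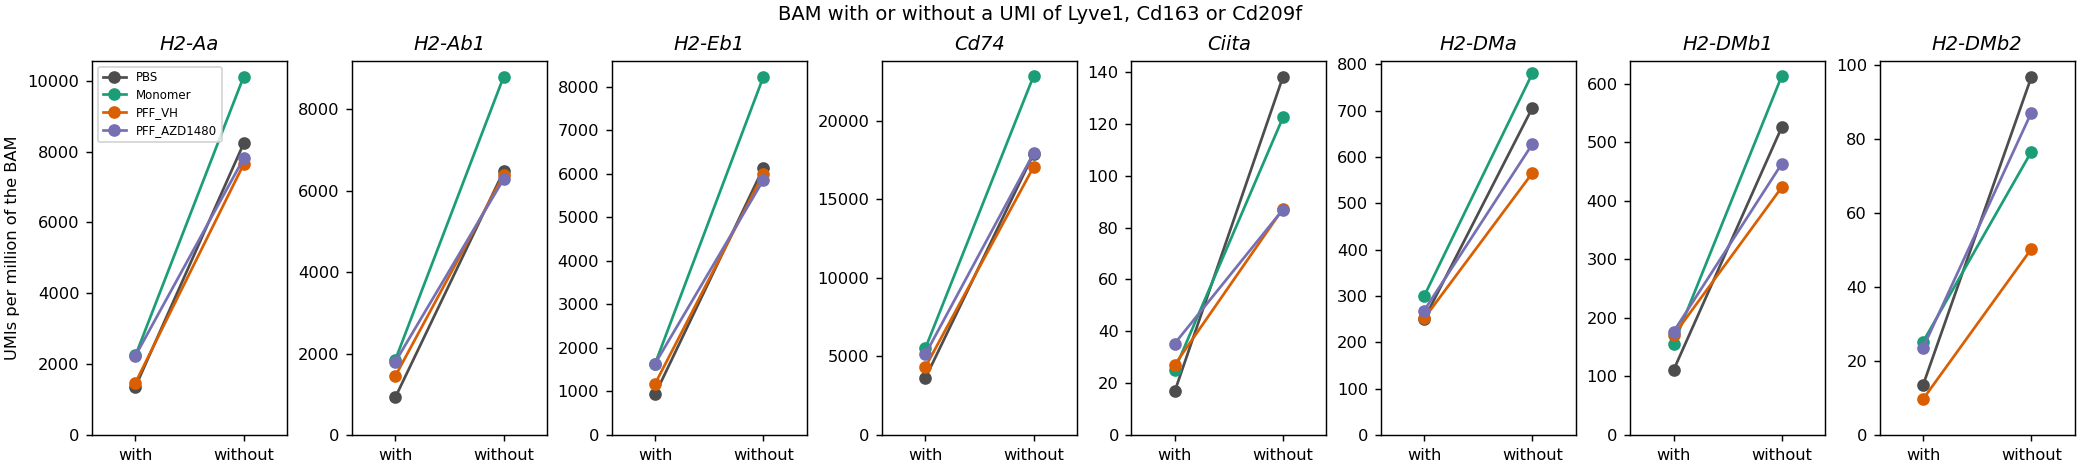
Levels of the 8 genes (CPM, linear axis) in BAM with and without a UMI of Lyve1, Cd163 or Cd209f, 1 line per library. Every line rises from the BAM with these markers to those without, for H2-Aa from 1362 to 2245 CPM up to 7647 to 10120 CPM.

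BAM of the Monomer library had the highest level of all 8 genes among the libraries, for example 17059 CPM of Cd74 against 9743 to 11041 in the others. It also held the largest portion of BAM without the 3 markers, 165 of 256, against 117 of 288 in PBS, 160 of 309 in PFF_VH and 147 of 332 in PFF_AZD1480. With BAM kept only where BAM marker UMIs outnumbered MG marker UMIs, 45.7% of BAM remained in Monomer against 56.6% to 68.1% in the others, and the thinned share with H2-Aa moved from 46.1%, 64.0%, 45.6% and 48.4% to 30.2%, 32.7%, 33.3% and 29.1% in PBS, Monomer, PFF_VH and PFF_AZD1480. By thinned share under that gate, Monomer was the highest for H2-Eb1 (30.1%) but not for the other 7 genes, and was the lowest for H2-DMa, H2-DMb1 and H2-DMb2. Its share with H2-DMb2, 4.00%, was below those of PBS (4.80%) and PFF_AZD1480 (5.59%) before the gate as well. The BAM markers of that gate include Lyve1, Cd163 and Cd209f, so it favours BAM with these markers, in which the 8 genes were lower. It therefore cannot tell a difference of Monomer in these genes from one in the mixture of BAM. With 1 Monomer library its difference has no replicate check.

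The β chains of H2-DM are encoded by neighbouring paralogs, and their balance differed by cell class. H2-DMb2 made up 19.0%, 14.6%, 7.75% and 12.8% of the H2-DMb UMIs in MG of PBS, Monomer, PFF_VH and PFF_AZD1480, and 14.5%, 11.4%, 9.03% and 14.6% in BAM. It made up 38.8%, 28.0%, 35.6% and 21.2% in DC. In B cells it made up 78.3%, 91.2%, 73.5% and 78.3%, above every other class in every library. Part of their 3' sequence is shared, so the assignment of some reads is uncertain. Of 411 stretches of 90 bases in the last 500 bases of the H2-DMb1 transcript, 52 (12.7%) also occur in an H2-DMb2 transcript, while none of those of H2-DMb2 occur in that of H2-DMb1.

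**Figure D4:**
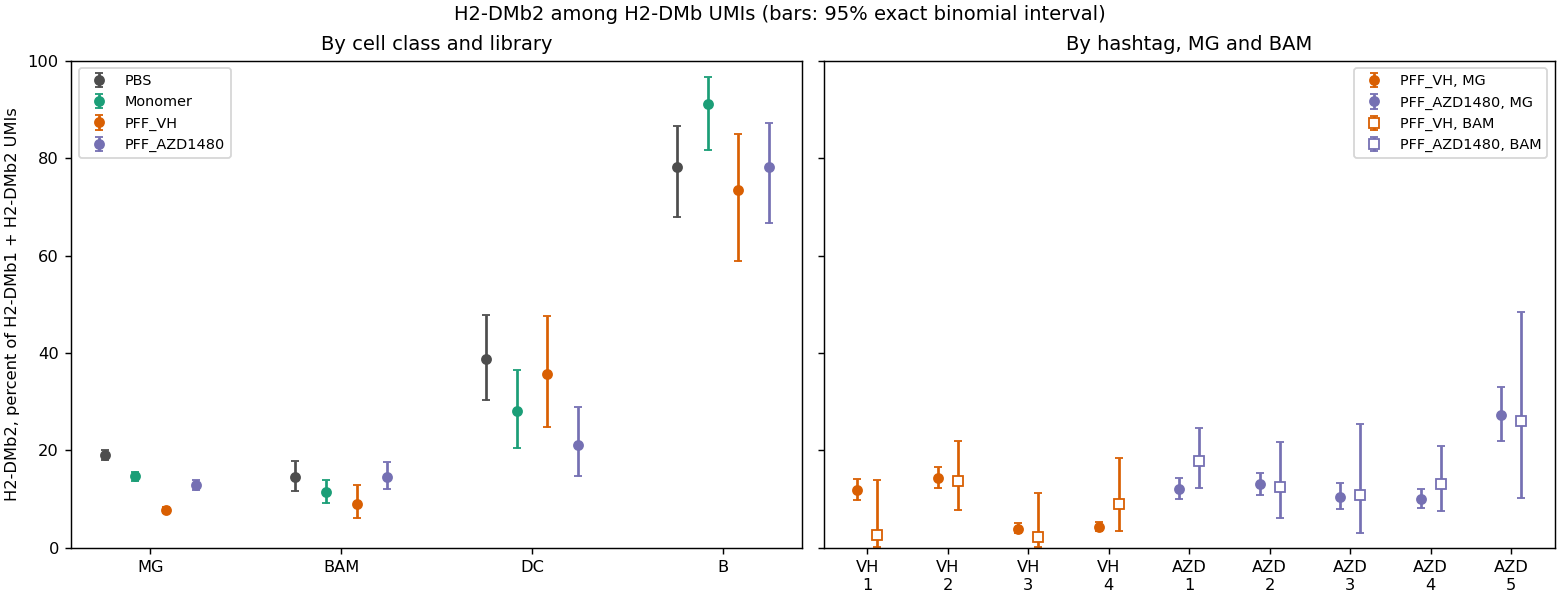
H2-DMb2 as a share (%) of the UMIs of H2-DMb1 and H2-DMb2 together, by cell class and library, with exact 95% binomial intervals that cover counting error only. B cells lie between 73.5% and 91.2%, and MG and BAM between 7.75% and 19.0%.

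Within MG, hashtags of 1 library differed in this balance. H2-DMb2 made up 11.9%, 14.2%, 3.90% and 4.21% in hashtags 1 to 4 of PFF_VH, and 11.99%, 13.003%, 10.3%, 9.90% and 27.2% in hashtags 1 to 5 of PFF_AZD1480. In BAM, where H2-DMb2 had 1 to 29 UMIs per hashtag, it made up 2.63%, 13.7%, 2.13% and 8.96% and then 17.8%, 12.5%, 10.8%, 13.2% and 26.1%. Hashtag 5 of PFF_AZD1480 was the highest in both classes, and hashtag 3 of PFF_VH the lowest in both. The MHC variants behind each hashtag are not given, and their part in this balance was not tested.

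AZD1480 was compared with vehicle after PFF in MG, between the 4 hashtags of PFF_VH and the 5 of PFF_AZD1480. Each condition was 1 library, so a difference here cannot be told apart from one between the libraries, which also differed in depth. In bulk sums of a class, fewer cells with a gene and less RNA per cell cannot be told apart. Of the 8 genes, 7 were lower with AZD1480 in edgeR, where 26.3% of all 13481 genes tested passed in either direction and 14.1% were lower. The median log2 change of the 8 genes was -0.60, and that of all genes tested was -0.00059.

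H2-Aa stood at 53.9, 44.9, 48.8 and 60.1 CPM in the hashtags of PFF_VH and at 39.2, 21.6, 34.9, 33.2 and 48.0 CPM in those of PFF_AZD1480. The groups overlapped in 1 hashtag, the highest of PFF_AZD1480. The log2 change was -0.63 (SE 0.16, edgeR adjusted p = 0.0131).

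H2-Ab1 stood at 85.0, 77.1, 66.2 and 76.5 CPM against 70.3, 49.1, 57.4, 63.6 and 77.1 CPM. The groups overlapped, and the change was -0.32 (SE 0.11, edgeR adjusted p = 0.0402). This call was lost when any of hashtags 1, 2 or 4 of PFF_VH or 2, 3 or 4 of PFF_AZD1480 was left out, with adjusted p from 0.0591 to 0.110.

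H2-Eb1 stood at 35.5, 34.2, 31.4 and 37.4 CPM against 21.2, 12.2, 13.6, 18.9 and 26.7 CPM, and Cd74 at 281, 267, 304 and 291 CPM against 209, 177, 195, 173 and 241 CPM. Neither overlapped between the groups. H2-Eb1 changed by -0.98 (SE 0.16, edgeR adjusted p = 0.00121) and Cd74 by -0.58 (SE 0.085, edgeR adjusted p = 0.000521) on the log2 scale.

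Ciita rested on 13 to 34 UMIs per hashtag in PFF_VH and 7 to 13 in PFF_AZD1480, at 0.972, 1.75, 1.31 and 1.87 CPM against 0.664, 0.851, 0.750, 0.690 and 1.11 CPM. The change was -0.97 (SE 0.26, edgeR adjusted p = 0.0164). Without hashtag 4 of PFF_VH the adjusted p was 0.0598.

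H2-DMa stood at 287, 268, 259 and 289 CPM against 229, 250, 238, 196 and 262 CPM, a change of -0.28 (SE 0.071, edgeR adjusted p = 0.0112). H2-DMb1 stood at 63.4, 65.2, 98.3 and 110 CPM against 53.1, 49.5, 51.3, 49.8 and 26.4 CPM, a change of -0.91 (SE 0.20, edgeR adjusted p = 0.0054). H2-DMb1 did not overlap between the groups, but its PFF_VH hashtags fell into a lower and a higher pair. H2-DMb2 stood at 7.04 ± 3.19 CPM (SD, n = 4) against 7.18 ± 1.73 CPM (SD, n = 5) and did not pass, at -0.04 (SE 0.27, edgeR adjusted p = 0.934). In all, 3 of the 8 genes did not overlap between the groups, where 24% of all genes tested did not.

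**Figure D5:**
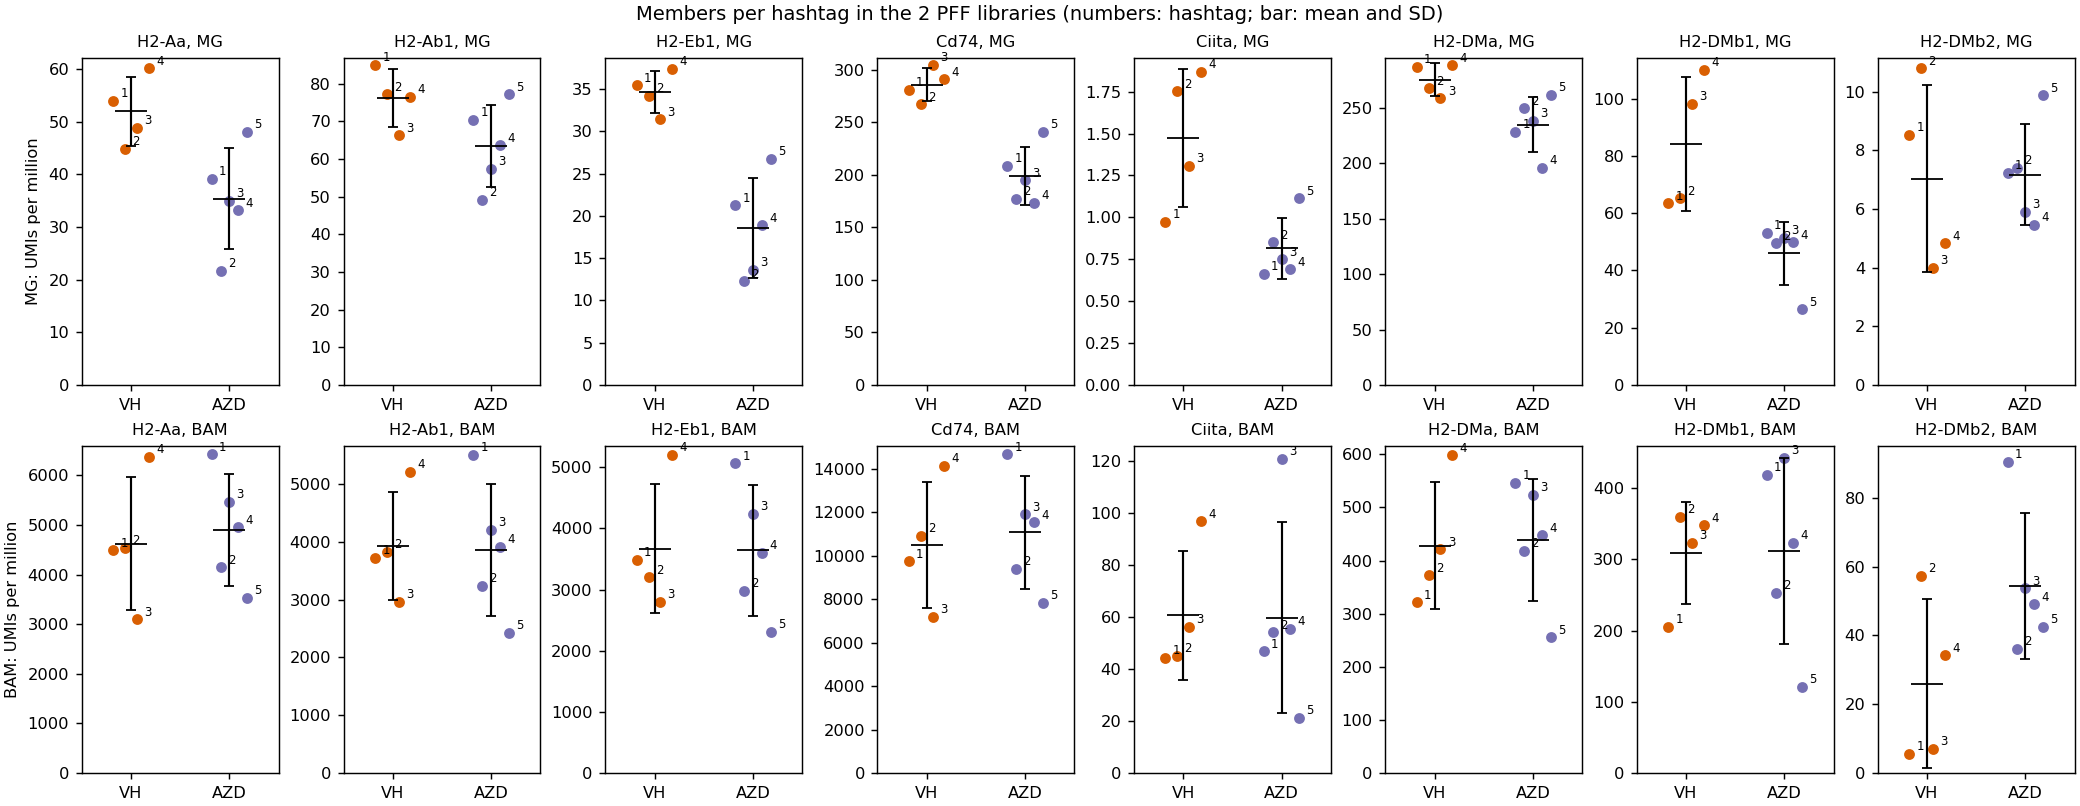
Levels of the 8 genes (CPM) in each hashtag of PFF_VH and PFF_AZD1480, in MG and in BAM, with 1 point per hashtag and a bar at the mean. In MG, H2-Eb1 lies at 31.4 to 37.4 CPM in PFF_VH and at 12.2 to 26.7 CPM in PFF_AZD1480, while in BAM the groups overlap for every gene.

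Markers of BAM, of T and NK cells and of monocytes moved with the MG result, while those of DC, B cells and neutrophils overlapped between the groups. The MG gate left out cells with 2 or more detected markers of another class, a limit that deeper cells reach more easily. Median depth was 2392 UMIs per MG in PFF_VH and 6929 in PFF_AZD1480, and the part of this gate in the sums was not tested. The summed level of the 9 BAM markers in MG was 14.4 to 20.2 CPM per hashtag in PFF_VH and 10.4 to 12.97 CPM in PFF_AZD1480. That of the 12 T and NK markers was 9.12 to 11.3 against 4.32 to 6.68 CPM, and that of the 8 monocyte markers 14.7 to 19.4 against 7.39 to 13.01 CPM. The 8 DC markers stood at 6.59 to 7.63 against 5.47 to 8.03 CPM, the 6 B cell markers at 2.70 to 4.57 against 2.04 to 3.92 CPM and the 7 neutrophil markers at 11.02 to 17.1 against 11.5 to 16.01 CPM. No marker of these lists was at 0 in MG of either PFF library. In T and NK cells with 1 hashtag, Cd74 stood at 186, 44.0, 153 and 276 CPM in PFF_VH and at 59.3, 29.9, 79.8, 42.7 and 39.8 CPM in PFF_AZD1480, on 1 to 52 UMIs per hashtag. The groups overlapped, and 3 of the 4 PFF_VH hashtags lay above every PFF_AZD1480 hashtag, the direction seen in MG. The thinned shares of all T and NK cells with Cd74 (15.7% and 4.92%) and H2-Aa (3.81% and 2.46%) lay in that direction too, while those with H2-Ab1 (2.97% and 7.38%) and H2-DMa (7.63% and 9.84%) lay in the other. Over all T and NK cells H2-Aa stood at 31.8 and 287 CPM, but cells with 1 hashtag held 10 of the 220 UMIs in PFF_AZD1480. The part of other cells' RNA in the MG result was not tested beyond the next comparison. When MG with any UMI of these markers were left out, 81.3% of MG remained in PFF_VH and 73.4% in PFF_AZD1480. This filter used unthinned UMIs, and shallow cells escape it more easily. It therefore cannot show that other cells' RNA was removed alike from both libraries. Then H2-Aa (-0.31, adjusted p = 0.257), H2-Ab1 (-0.11, adjusted p = 0.408), H2-Eb1 (-0.58, adjusted p = 0.0593) and Ciita (-0.94, adjusted p = 0.105) no longer passed in edgeR. Cd74 (-0.42, adjusted p = 0.0087), H2-DMa (adjusted p = 0.0105) and H2-DMb1 (adjusted p = 0.0061) still did.

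In BAM, the same comparison called none of the 7 genes tested, where it called 0.245% of the 3260 genes. The edgeR test called 8 genes, 351 had an unadjusted p under 0.05, and DESeq2 called 17. H2-Aa stood at 4487, 4542, 3096 and 6369 CPM in PFF_VH and at 6422, 4148, 5461, 4955 and 3533 CPM in PFF_AZD1480, a change of 0.09 (SE 0.20, edgeR adjusted p = 0.926). Cd74 stood at 9749, 10921, 7188 and 14139 CPM against 14674, 9413, 11914, 11538 and 7831 CPM, a change of 0.08 (SE 0.19). The groups overlapped for both. H2-Ab1 (-0.02, SE 0.21), H2-Eb1 (-0.01, SE 0.22), Ciita (-0.16, SE 0.37), H2-DMa (0.04, SE 0.23) and H2-DMb1 (-0.00046, SE 0.28) had adjusted p of 0.930 to 1.000 in edgeR, and H2-DMb2 was too low to be tested. The median of the 7 changes was -0.00046, and that of all genes tested 0.0057. BAM numbered 14 to 75 per hashtag, and on simulated data the test found 61% of changes of 2-fold in BAM and 88% in MG.

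Whether the change differed between the classes was tested as an interaction over the 9 hashtags, taken as blocks, which called 0.7% of 13147 genes. Its p-values followed the normal distribution, so the spread was in effect taken from genes together and not from each gene alone. The change in BAM was above that in MG by 0.75 (SE 0.16, edgeR adjusted p = 0.00202) for H2-Aa, 0.99 (SE 0.17, edgeR adjusted p = 5.43e-06) for H2-Eb1, 0.67 (SE 0.16, edgeR adjusted p = 0.00538) for Cd74 and 0.85 (SE 0.21, edgeR adjusted p = 0.0117) for H2-DMb1 on the log2 scale. It did not pass for H2-Ab1 (0.28, SE 0.16), H2-DMa (0.35, SE 0.19), Ciita (0.82, SE 0.61) or H2-DMb2 (1.12, SE 0.54), with edgeR adjusted p of 0.545 to 0.770. Without hashtag 3 of PFF_VH the edgeR adjusted p was 0.0765 for H2-Aa, 0.238 for Cd74 and 0.0817 for H2-DMb1. Cd74 also lost its call without hashtag 1 (0.0665) or 4 (0.0902) of PFF_AZD1480, and H2-DMb1 without hashtag 1 of PFF_AZD1480 (0.123) or hashtag 1 (0.0508) or 4 (0.114) of PFF_VH, while H2-Eb1 kept its call without any 1 hashtag. With those MG left out, and with BAM kept only where BAM marker UMIs outnumbered MG marker UMIs, none of the 8 passed. That BAM gate favours BAM with Lyve1, Cd163 or Cd209f, and it left 7 to 52 BAM per hashtag.

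Other genes of the class II pathway were taken from lists by role, of which 28 genes were tested in MG, with 5 higher and 7 lower with AZD1480 and a median log2 change of 0.01, where 26.3% of all genes passed and 14.1% were lower. Among 8 genes of peptide loading and processing, 5 were lower. H2-Oa, whose product forms the H2-DO inhibitor of H2-DM with that of H2-Ob, stood at 44.6 ± 7.78 CPM (SD, n = 4) in PFF_VH and 22.2 ± 5.83 CPM (SD, n = 5) in PFF_AZD1480, a change of -1.04 (SE 0.17, edgeR adjusted p = 0.000974), and H2-Ob changed by -0.40 (SE 0.13, edgeR adjusted p = 0.0374). Ctss and Ctsl, proteases that trim the invariant chain, changed by -0.37 (SE 0.068) and -0.35 (SE 0.057), and Ifi30, a lysosomal thiol reductase, by -0.51 (SE 0.081). The proteases Ctsb, Ctsd and Lgmn did not pass.

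Of 7 genes for the factors that hold CIITA on promoters, Nfyc alone passed, at 0.16 (SE 0.053, edgeR adjusted p = 0.0364), and Rfx5 stood at 11.8 ± 0.495 CPM (SD, n = 4) against 13.05 ± 1.23 CPM (SD, n = 5). Of 7 genes of the interferon-γ axis, 2 were lower and 1 was higher. Socs1, a feedback inhibitor of JAK kinases, was lower (-0.80, SE 0.19) and the receptor chain Ifngr1 was higher (0.27, SE 0.051). Of 3 genes of class II turnover, the ubiquitin ligase March8 (0.22, SE 0.052) and Cd83, which opposes the ubiquitination of class II (0.39, SE 0.083), were higher. Of 3 costimulatory genes, Cd86 was higher (0.33, SE 0.074). In BAM none of the 17 tested genes of these lists passed in edgeR, where 0.245% of all genes did.

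The genes outside the 8 whose levels ran most like theirs were found by Pearson's r over 28 sums, those of 7 cell classes in 4 libraries, as a description. Sums of 1 library share its depth and its free RNA. Most like the mean of H2-Aa, H2-Ab1, H2-Eb1 and Cd74 was Gm20513 (r = 0.94), the antisense gene that overlaps H2-Eb1, followed by Arhgap6 (r = 0.88), Myof (r = 0.86), Gm6377 (r = 0.83) and Eps8 (r = 0.82). Among these other genes, Gm20513 was also most like Ciita (r = 0.94) and H2-DMb2 (r = 0.90), the latter followed by H2-Ob (r = 0.86) and Kynu (r = 0.81). Eps8 was most like H2-DMb1 (r = 0.93), followed by Nckipsd (r = 0.83).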

How the data were processed

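Gene expression (10x Genomics 3' v3.1) was measured in 4 libraries and cell hashtags in the PFF libraries. The authors made the deposited UMI count matrices with Cell Ranger (7.0.1 per the file headers) against mm10 (GRCm38), without normalization. Barcodes were kept at 500 to 15000 UMIs, 250 to 5000 genes and a mitochondrial share of 10% or less (14617 PBS, 15031 Monomer, 34436 PFF_VH and 13021 PFF_AZD1480). MG took at least 4 MG markers, at least 0.8% of UMIs in MG markers, and fewer than 2 markers of any other class. Every other class took at least 2 of its markers and 3 of their UMIs, with more of its markers than of any other class but MG. Cells of these classes that also reached the limit on MG markers (0.8% of UMIs) were left out. Hashtags were called with HTODemux (Seurat 5.3.0), and cells with none or several entered no hashtag sum. Scrublet (scanpy 1.11.5) called no doublet at its automatic threshold, so doublets were left in, and leaving out the 8% of cells with the highest scores was an alternative. Hashtags with at least 10 cells of a class entered the condition test, and units with at least 5 cells of each class the comparisons of classes.

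Sums of UMIs were tested with edgeR 4.0.16 (R 4.3.3) by its quasi-likelihood test, with TMM scaling, filterByExpr and Benjamini-Hochberg adjustment over all genes tested, calling adjusted p under 0.05. The steps were tested on simulated data. DESeq2 1.42.0, no count filter, stricter gates, other hashtag callers and leaving out each hashtag were alternatives. Intervals are exact 95% binomial (Clopper-Pearson) and, like CPM, cover counting error only. The members, marker lists and pathway lists were chosen with earlier results of these data known, the motifs after the members' promoters were seen, and the interaction test after the results in each class. The genes named outside the members are those of the pathway lists and the genes of highest correlation among those reaching 10 CPM (log2 of CPM plus 1). The pathway counts cover all genes of the lists, of which 1 is not reported here by name.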

Additional observations from a re-analysis of the deposited data

Results flagged for a closer look

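The change with AZD1480 differed between BAM and MG for 4 of the 8 genes in the edgeR interaction test, which called 0.7% of 13147 genes. The BAM value was above the MG value by 0.75 for H2-Aa, 0.99 for H2-Eb1, 0.67 for Cd74 and 0.85 for H2-DMb1 on the log2 scale. With the stricter gate on both classes the same differences were 0.44, 0.50, 0.41 and 0.63 and none passed, with adjusted p of 0.740 to 0.777. With 1 hashtag left out, the edgeR adjusted p rose to at most 0.0765 for H2-Aa, 0.238 for Cd74 and 0.123 for H2-DMb1. H2-Eb1 kept its call there.

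H2-DMb1 in MG of PFF_AZD1480 stood at 26.4 CPM in hashtag 5, apart from the other 4 hashtags, by Dixon's test at the 95% level. It was the 1 such value in 32 groups of hashtags looked at, where chance gives about 1 in 20. H2-DMb2 in the same cells, at 9.88 CPM, was the highest of the 5 hashtags.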

How the results depend on the processing

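In MG, the 7 calls kept their direction under every alternative run. H2-Aa (-0.31), H2-Ab1 (-0.11), H2-Eb1 (-0.58) and Ciita (-0.94) lost the call with the stricter gate, and H2-Ab1 (-0.38 to -0.24) and Ciita (-1.12 to -0.83) lost it when some hashtags were left out, while H2-DMb2 moved between -0.22 and 0.26. Same-numbered hashtags correlated in MG at -0.08, 0.38, 0.12 and 0.38 and in BAM at 0.04, 0.16, 0.04 and -0.01, so that not every pair was over 0.1 and the numbers were not taken to pair the hashtags, although pairs 2 and 4 were the highest of the 20 in MG. Not every hashtag correlated best with its own number. With the number as a replicate block, 3201 genes were called in MG in place of 3540 and 11 in BAM in place of 8, and no call of the 8 genes changed. In BAM none of the 7 members tested was called under any alternative that fitted it. Ciita was fitted in 11 alternatives, 10 of them with an adjusted p, and the others in 19, while H2-DMb2 was not tested. The BAM count was 17 (8 higher) with DESeq2, 95 (49 higher, 46 lower) with no filter on low counts, 3 (0 higher, 3 lower) with MULTIseqDemux, 13 (4 higher) with hashtag values centred within cells, and 2 to 15 with 1 hashtag left out (0 to 5 higher, 2 to 10 lower). BAM values near 0 changed sign: with values centred within cells H2-Aa (-0.0074), Cd74 (-0.029) and H2-DMb1 (0.039), under the replicate block H2-Ab1 (0.10), H2-Eb1 (0.12), Ciita (0.043) and H2-DMb1 (0.19), with MULTIseqDemux H2-Ab1 (0.38) and H2-Eb1 (0.42), without the highest doublet scores H2-Ab1 (0.010), H2-Eb1 (0.013) and H2-DMb1 (0.019), with the stricter gate H2-Ab1 (0.048) and H2-Eb1 (0.032), and H2-DMb1 with DESeq2 (0.0063), no filter (0.0076) and at least 1000 counts per cell (0.0019). With 1 hashtag left out, BAM values ranged from -0.074 to 0.27 for H2-Aa, -0.20 to 0.14 for H2-Ab1, -0.17 to 0.20 for H2-Eb1, -0.075 to 0.25 for Cd74, -0.34 to 0.15 for Ciita, -0.078 to 0.24 for H2-DMa and -0.17 to 0.18 for H2-DMb1. These ranges rest on 9 fits each, except that of Ciita, which rests on 5.

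DC against BAM called 240 genes with hashtags only and 1767 with the 4 libraries as units, in place of 996. Calls were lost with no filter by H2-Aa (0.54), H2-Ab1 (0.50), H2-Eb1 (0.49), Cd74 (0.37) and H2-DMa (0.55), with hashtags only by H2-Aa (0.66), H2-Ab1 (0.58), H2-Eb1 (0.59), Cd74 (0.50), Ciita (1.57) and H2-DMa (0.94), and with at least 1000 counts by Cd74 (0.58), and H2-DMb1 gained one with 4 libraries (0.82). B cells against DC called 907 genes with no filter, 99 with hashtags only and 984 with 4 libraries, in place of 424. There, with hashtags only, Cd74 (-0.72) lost its call and Ciita turned to 0.053, and Ciita gained a call with 4 libraries (-0.86). With hashtags only, 3 units remained. The interaction called 27 genes with the stricter gate in place of 92, where H2-Aa (0.44), H2-Eb1 (0.50), Cd74 (0.41) and H2-DMb1 (0.63) lost their calls. With 1 hashtag left out it called 61 to 112, with H2-Aa at 0.59 to 0.97, Cd74 at 0.46 to 0.85 and H2-DMb1 at 0.75 to 1.09. The cause of these changes was not tested. MG of PFF_VH, at a median of 2392 UMIs, and BAM at 14 cells in 1 hashtag limit what low genes can show.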

Other observations

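Monocytes, a class of 16 to 45 cells per library, held H2-Aa, H2-Ab1, H2-Eb1 and Cd74 at 94.5%, 88.7%, 94.2% and 89.5% of the UMIs of the 8 genes in PBS, Monomer, PFF_VH and PFF_AZD1480. Cd74 had 0.896, 5.88, 0.954 and 1.65 UMIs per UMI of the 3 chain genes there, against 0.853 to 0.903 in BAM, so that the mixture was near that of BAM in PBS and PFF_VH alone. Their summed level of the 8 genes ranged from 1027 CPM in Monomer, through 4459 in PFF_AZD1480 and 13997 in PFF_VH, to 21071 in PBS. With so few cells these levels were not tested.

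MG of PFF_VH without a called hashtag, 11102 cells, held H2-Aa at 60.9 CPM and Cd74 at 256 CPM, against 52.6 and 286 CPM in the 16041 MG with 1 hashtag and 90.1 and 373 CPM in the 3135 MG with more than 1.

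Over 28 sums of cell classes and libraries, the 8 genes correlated with each other at Pearson's r of 0.71 to 0.99. These sums share libraries and depth, and no test was made.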
